A study of Mus musculus with 9 samples.

Results

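Transcripts of the replication-dependent histone genes were counted in mouse bone marrow-derived macrophages (BMDMs). These clustered genes encode the core histones H2A, H2B, H3 and H4 and the linker histone H1. The genes were chosen by symbol, as those whose name began with Hist, a cluster number from 1 to 4 and the letter h. Of the 28379 genes in the deposited table, 9 carried such a symbol. A further 58 genes of the same clusters were listed under newer symbols, and they were found through the older symbol that the GENCODE M21 annotation gives for the same gene ID, such as Hist2h2be for H2bc21. The 67 genes are described here, and counts for the 9 and the 58 are given apart where they were tested. GENCODE M21 holds 70 genes of this form, and the remaining 3 were not analysed here.

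The cells came from the bone marrow of C57BL/6J mice aged 10 weeks and were grown with 20 ng/ml of macrophage colony-stimulating factor (M-CSF), which was present in every group. The PBS group had PBS only, the RANKL group had 100 ng/ml of RANKL, the cytokine that drives macrophages into osteoclasts, and the RANKL + Vit D + K group had the same RANKL with 1000 nM of vitamin D (calcitriol) and 20 μM of vitamin K (menaquinone). The vitamin K dose is that of the labels, and the study's methods give a higher one. Each group had 3 libraries, collected after 48 h. The libraries were made from poly(A) RNA and held 65915112 to 68229647 counts each. The sources used here do not tie the libraries to separate mice or cultures, so the p-values measure only the spread between these samples, which may be technical. The second RANKL + Vit D + K library stood apart from the other two of its group, with counts for 19965 genes against 18794 and 18963, and the results that rest on it are given with and without it.

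Replication-dependent histone genes supply the histones that package new DNA in S phase. Most of them have no introns, and their main messenger RNAs end in a short stem-loop instead of a poly(A) tail. The stem-loop is bound by the protein SLBP, and the transcript is cut just behind it by a complex that contains the U7 small nuclear RNA. When a transcript is not cut at the stem-loop it can be polyadenylated further downstream, as is known for some of these genes in differentiated cells. A library made from poly(A) RNA keeps these polyadenylated forms. The values below are therefore levels of polyadenylated histone transcripts and not of all histone RNA.

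The stem-loop is shown for 4 genes because it marks where the usual transcript ends, and most reads counted here came from genes annotated far beyond it. The sequences are from the GENCODE M21 transcripts (GRCm38), written 5′ to 3′, and the capitals mark both arms of the stem.
H1f2: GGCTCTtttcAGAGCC
H2aw: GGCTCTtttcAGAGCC
H4c9: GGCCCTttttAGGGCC
H4f16: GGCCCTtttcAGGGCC
They lie in the 3′ untranslated region at chr13:23739512-23739527 (+ strand) for H1f2, chr11:58955172-58955187 (+ strand) for H2aw, chr13:22040966-22040981 (- strand) for H4c9 and chr6:136803998-136804013 (- strand) for H4f16. A perfect stem of this kind was found behind the stop codon of 43 of the 64 genes with an annotated coding transcript. Of the 49 transcripts with at least 50 bases behind the stop codon 43 held one, and 11 transcripts were annotated with 0 bases there. The stem-loop began 21 to 58 bases behind the stop codon, with a median of 31 bases. The form printed for H1f2 and H2aw was the most common, with 25 genes, and the form printed for H4f16 was held by 7. No match was found within 120 bases of the stop codon for H2bc21, H2bc4, Hist1h2bq or Hist1h2br, and this says only that these letters were not in that window.

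The promoters of H2aw, H2bc8 and Hist1h2bq are shown because H2aw fell with the vitamins, H2bc8 is among the most abundant members, and Hist1h2bq shares its promoter letters with a second gene. They span 250 bases before to 50 after the annotated start (RefSeq, GRCm38.p6), written 5′ to 3′ on the strand of the gene, with capitals for the motifs searched on both strands.
H2aw: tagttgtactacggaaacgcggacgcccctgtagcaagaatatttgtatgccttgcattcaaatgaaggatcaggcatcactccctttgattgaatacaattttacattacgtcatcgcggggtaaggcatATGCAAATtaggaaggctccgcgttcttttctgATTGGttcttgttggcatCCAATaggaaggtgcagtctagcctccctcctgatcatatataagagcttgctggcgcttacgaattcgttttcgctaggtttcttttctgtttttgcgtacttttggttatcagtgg
H2bc8: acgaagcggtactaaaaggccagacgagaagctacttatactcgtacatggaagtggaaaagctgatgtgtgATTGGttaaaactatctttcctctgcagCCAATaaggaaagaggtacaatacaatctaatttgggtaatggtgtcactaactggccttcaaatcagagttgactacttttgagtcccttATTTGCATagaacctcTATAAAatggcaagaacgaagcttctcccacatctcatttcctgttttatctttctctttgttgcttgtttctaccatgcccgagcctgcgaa
Hist1h2bq: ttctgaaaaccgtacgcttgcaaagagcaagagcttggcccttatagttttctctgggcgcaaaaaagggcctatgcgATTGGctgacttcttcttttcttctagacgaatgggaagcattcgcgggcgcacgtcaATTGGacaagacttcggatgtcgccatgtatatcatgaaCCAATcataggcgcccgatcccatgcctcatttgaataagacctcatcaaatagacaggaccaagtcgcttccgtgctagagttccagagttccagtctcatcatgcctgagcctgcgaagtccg
They lie at chr11:58954435-58954734 (+ strand), chr13:23571150-23571449 (+ strand) and chr13:21810150-21810449 (- strand). The motifs were the octamer ATTTGCAT, the CCAAT box and the TATA box TATAAA, and none of these contains another. The octamer, known from H2B promoters as a site for the factor OCT1, was in 12 of 60 member promoters and in 1.74% of 32851 RefSeq promoters. All 12 belonged to H2A genes (6 of 16) and H2B genes (6 of 16), which often share a divergent promoter. CCAAT was in 51 of the 60 member promoters and in 37.4% of all promoters, and of the 12 H4 promoters 3 held it. TATAAA was in 34 of the 60 and in 13.6% of all promoters. The 300 bases of Hist1h2bq and Hist1h2br were the same letter for letter. A promoter entry was matched for 59 members, and there was none for H2ac14, H2bc21, H2bc4, H2bu1-ps, H3c1, H3c7, H4c14 and Hist1h2al.

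Of the 9 genes that carry the older symbols, 8 sit together on chr13 between positions 21786826 and 21837530, and the ninth, Hist1h2al, is a processed pseudogene at chr13:51202727-51203065. All 9 were low. The H2B genes Hist1h2br and Hist1h2bq had the most counts. Hist1h2br had 36, 56 and 71 counts in the PBS libraries, 35, 28 and 17 in the RANKL libraries and 10, 52 and 0 in those with the vitamins. Hist1h2bq had 33, 53 and 63 counts in the PBS libraries, 24, 26 and 15 in the RANKL libraries and 8, 49 and 0 in those with the vitamins. In both genes the second RANKL + Vit D + K library stood far above the other two of its group.

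The protein-coding transcripts of Hist1h2bq (1254 bases) and Hist1h2br (1256 bases) differ by no base over the shorter one, so how reads were divided between them depends on the counting and their split is uncertain. Both genes are annotated with 3 exons, which is unusual for the family. The coding sequences of the H4 genes Hist1h4m and Hist1h4n are also the same, as are those of the H2A genes Hist1h2ao and Hist1h2ap. Hist1h4n had 25, 19 and 4 counts in the PBS libraries, 4, 7 and 1 in the RANKL libraries and 12, 1 and 2 in those with the vitamins. Hist1h4m had 9, 24 and 8 counts in the PBS libraries, 0, 4 and 1 in the RANKL libraries and 6, 4 and 2 in those with the vitamins. The PBS libraries held most of the counts of this H4 pair, and the groups overlapped for Hist1h4n.

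The H2B gene Hist1h2bp had 1, 0 and 20 counts in the PBS libraries, 2, 7 and 10 in the RANKL libraries and 2, 17 and 6 in those with the vitamins. The H2A genes Hist1h2an, Hist1h2ao and Hist1h2ap had at most 12, 6 and 8 counts in any library. Hist1h2al had 3 counts in the second RANKL library and 0 in the other 8. Of the 9 genes 3 passed the filter on low counts (Hist1h2bq, Hist1h2br and Hist1h4n), and none of the 3 was called in any comparison. Their log2 fold changes in the RANKL group against the PBS group were -1.34 ± 1.07 (SE) for Hist1h2bq, -1.17 ± 1.06 for Hist1h2br and -2.12 ± 1.17 for Hist1h4n. The lowest of the 3 adjusted p-values was 0.383 (edgeR). Against PBS with the vitamins the values were -1.49 ± 1.08, -1.49 ± 1.07 and -1.58 ± 1.15, with a lowest adjusted p of 0.294.

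**Figure D1:**
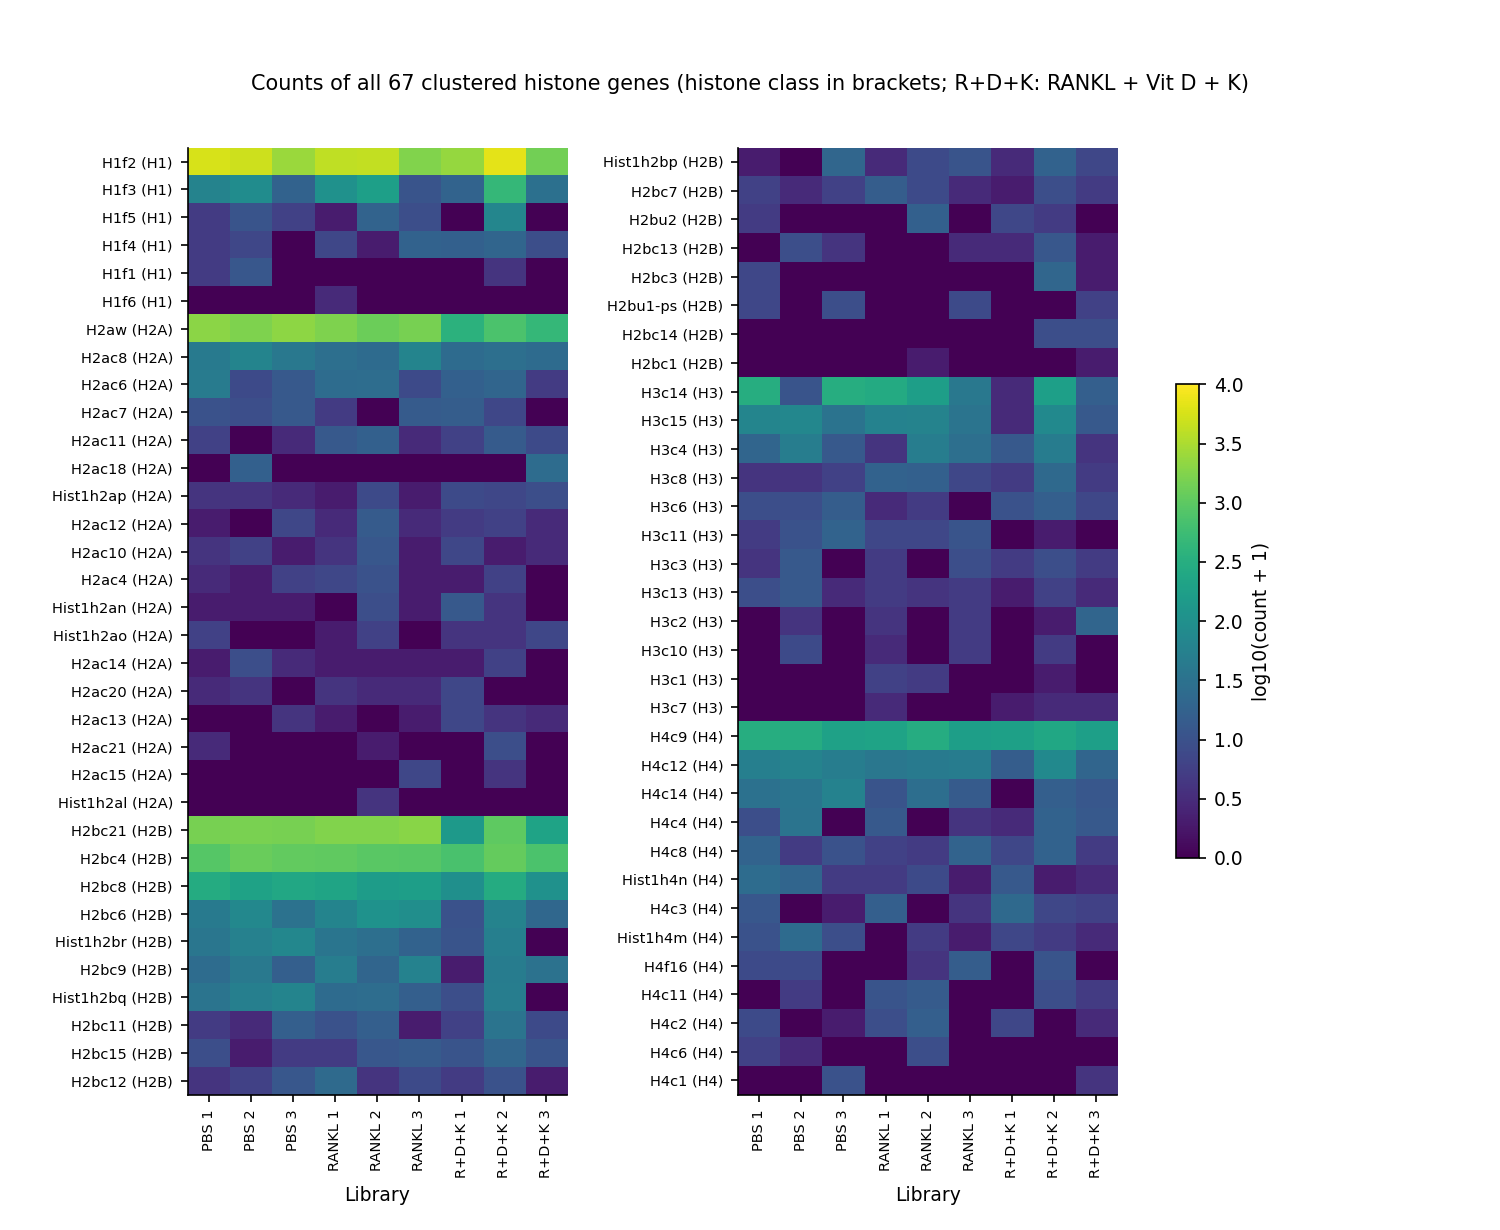
Heat map of log10(count + 1) for the 67 clustered histone genes (rows, by histone class) in the 9 libraries (columns, by group). 58 genes stay under 100 counts in every library, and 9 reach 100 or more in at least 1 library.

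The family as a whole was weakly represented. Of the 67 genes 58 stayed under 100 counts in every library, 25 had at least 1 count in all 9 libraries, and 59 had a mean below 1 FPKM (fragments relative to transcript length and to the library's total). The filter on low counts was passed by 28 genes, 3 of the 9 and 25 of the 58. By class these were 3 of 6 H1 genes, 5 of 18 H2A genes, 9 of 18 H2B genes, 4 of 12 H3 genes and 7 of 13 H4 genes. The 39 untested genes never exceeded 68 counts, and 34 of them had 0 counts in at least 1 library.

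A few genes held nearly all of the counts. H1f2 held 44.2% of the counts of the family over all libraries, and H1f2, H2aw, H2bc21 and H2bc4 together held 85.4%. On the FPKM scale, which allows genes to be compared, the highest means over the 9 libraries were 32.3 for H1f2, 11.1 for H2bc4, 8.14 for H2aw, 6.35 for H2bc21, 4.26 for H4c9 and 4.23 for H2bc8. By class, H1 genes held 45.7% of the counts, H2B genes 30.6%, H2A genes 16.5%, H4 genes 4.16% and H3 genes 2.99%.

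The genes that were counted were mostly those annotated with a long 3′ end. Of 17 members with more than 500 bases behind the stop codon 16 passed the filter, and these 17 held 91.3% of the counts of the family. Of 47 members with up to 500 bases 12 passed, and they held 8.66%. Counts grow with transcript length, so the comparison was also made per length. The median of the mean FPKM was 0.195 for the 17 members and 0.103 for the 47, and the highest means were 32.3 (H1f2) and 4.26 (H4c9). The signal AATAAA lay in the last 40 bases of 14 members, among them H1f2, H2aw, H2bc21, H3c14 and H4f16.

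**Figure D2:**
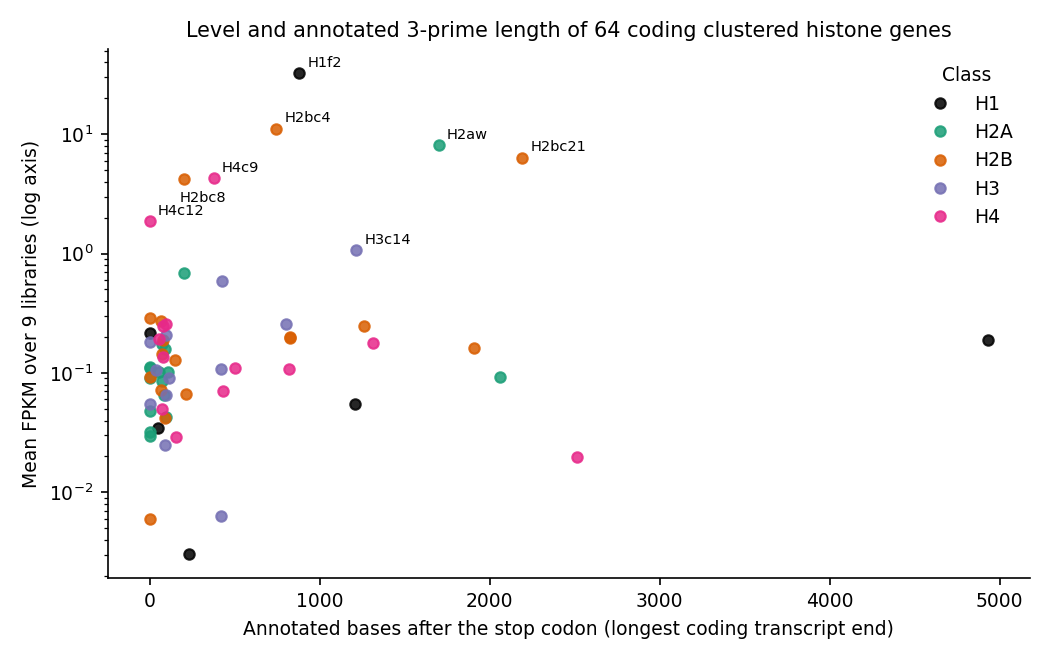
Mean FPKM over 9 libraries (log axis) against the annotated bases behind the stop codon for the 64 members with a coding transcript. H1f2, with 880 bases, is highest at 32.3 FPKM, and the members with short ends lie at or below 4.26 FPKM.

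H1f2 (Hist1h1c, chr13:23738808-23740367), a linker histone that binds the DNA between nucleosomes, was the most abundant member. It had 5818, 4988 and 2480 counts in the PBS libraries, 4085, 4267 and 1754 in the RANKL libraries and 2361, 6921 and 1401 in those with the vitamins. The highest and the lowest value of all 9 libraries were both among the libraries with the vitamins, and the 3 groups overlapped. The levels were 38.2 ± 15.2 FPKM with PBS, 28.7 ± 12.4 FPKM with RANKL and 30.0 ± 24.3 FPKM with the vitamins (SD, n = 3). No comparison was called for H1f2, with adjusted p-values of 0.658, 0.838 and 0.607 for RANKL against PBS, vitamins against RANKL and vitamins against PBS (edgeR).

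H2aw (Hist3h2a, chr11:58954685-58956830), an H2A gene outside the large cluster, was lowest with the vitamins in every library. It had 1999, 1685 and 2059 counts in the PBS libraries, 1679, 1285 and 1538 in the RANKL libraries and 367, 734 and 459 in those with the vitamins. All 3 RANKL + Vit D + K libraries were below all 6 others, and the RANKL libraries had fewer counts than the PBS libraries, though their FPKM ranges touched. The levels were 12.0 ± 1.33 FPKM with PBS, 9.23 ± 1.22 FPKM with RANKL and 3.20 ± 1.12 FPKM with the vitamins (SD, n = 3). The annotated gene lies within the first exon and the following intron of Trim17 on the same strand, so reads of both cannot be fully told apart. Trim17 itself had 11 to 87 counts a library, far below H2aw.

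H2bc21 (Hist2h2be, chr3:96221119-96223738), an H2B gene whose transcript is known to be polyadenylated in cells that no longer divide, had steady counts without the vitamins. It had 1487, 1549 and 1503 counts in the PBS libraries, 1718, 1733 and 1931 in the RANKL libraries and 143, 1004 and 211 in those with the vitamins. In counts and FPKM the RANKL libraries were all above the PBS libraries, and the RANKL + Vit D + K libraries were all below them. Scaled to a common library size (CPM), the means were 23.4 ± 0.186 with PBS and 25.0 ± 1.96 with RANKL (SD, n = 3). The second vitamin library, with 1004 counts, lay between the other two of its group and the PBS range. The levels were 7.75 ± 0.101 FPKM with PBS, 9.03 ± 0.387 FPKM with RANKL and 2.26 ± 2.36 FPKM with the vitamins (SD, n = 3). No other gene of the deposited table overlaps it.

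H2bc4 (Hist1h2bc, chr13:23684199-23692908), an H2B gene annotated with 2 exons, was steadier. It had 893, 1220 and 1096 counts in the PBS libraries, 1061, 949 and 917 in the RANKL libraries and 710, 1126 and 742 in those with the vitamins. The groups overlapped, with 2 of the 3 vitamin libraries below all others. The levels were 12.4 ± 1.79 FPKM with PBS, 11.2 ± 1.04 FPKM with RANKL and 9.82 ± 2.46 FPKM with the vitamins (SD, n = 3).

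H2bc8 (Hist1h2bg, chr13:23571396-23572013), another H2B gene, had 284, 199 and 248 counts in the PBS libraries, 216, 164 and 176 in the RANKL libraries and 98, 284 and 103 in those with the vitamins. In counts the second vitamin library was as high as the highest PBS library, and the other two were the lowest of all 9. The highest values were 5.96 FPKM with the vitamins and 6.24 FPKM with PBS. H4c9 (Hist1h4i, chr13:22040636-22041362), the most abundant H4 gene, had 307, 301 and 196 counts in the PBS libraries, 210, 299 and 175 in the RANKL libraries and 185, 242 and 181 in those with the vitamins, and its groups overlapped throughout.

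H3c14 (Hist2h3c1, chr3:96246685-96248509), the most abundant H3 gene, had 312, 10 and 314 counts in the PBS libraries, 279, 173 and 39 in the RANKL libraries and 2, 182 and 15 in those with the vitamins. Each group held libraries with high and with low values. H3c14 shares its 1825 bases with the gene Gm20634 on the same strand, which had 152, 663 and 81 counts in the PBS libraries, 28, 41 and 213 in the RANKL libraries and 82, 38 and 58 in the vitamin libraries. The lowest PBS library for H3c14 was the highest for Gm20634, so the assignment of reads to these genes is uncertain.

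**Figure D3:**
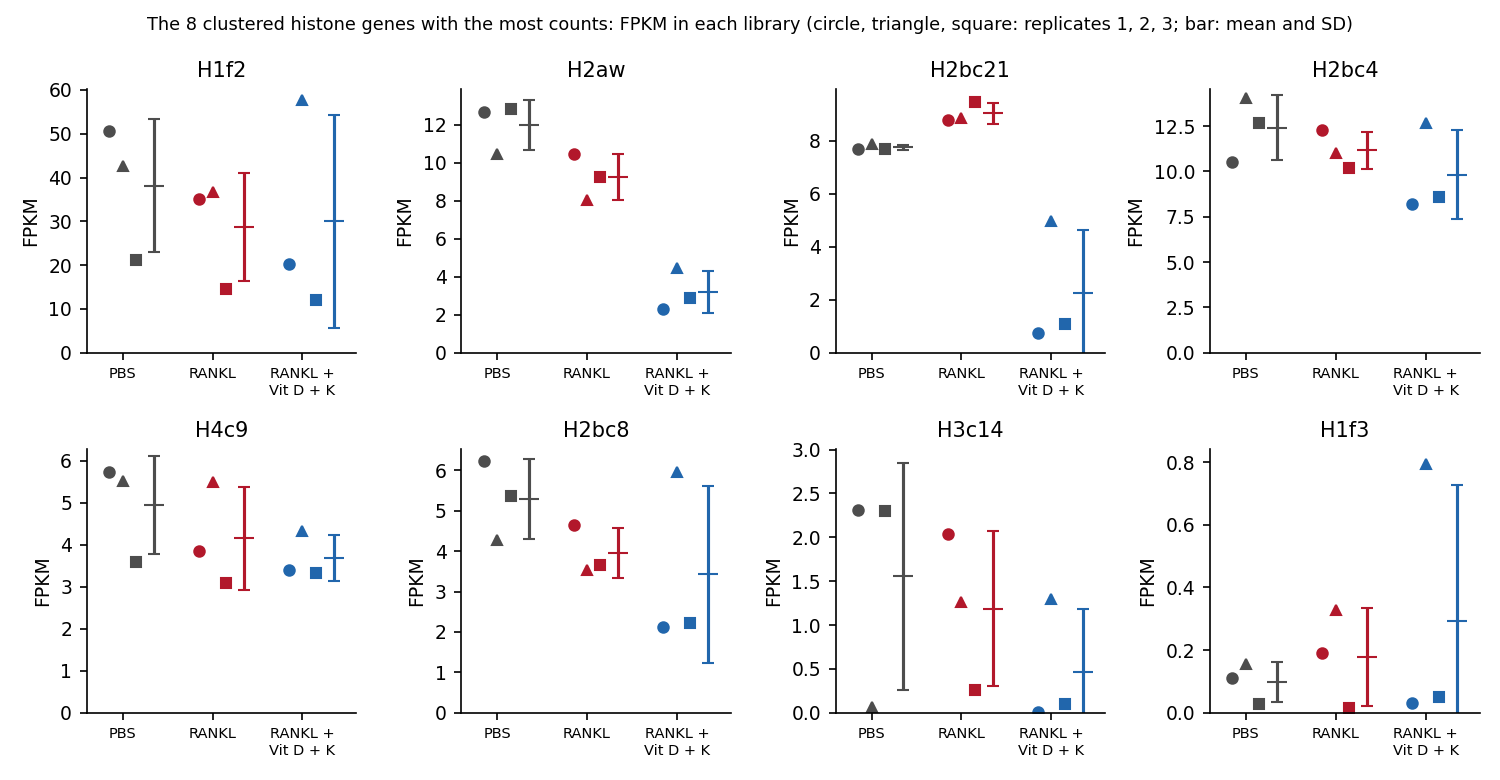
FPKM of the 8 members with the most counts in each of the 9 libraries (points) with the group mean and SD. H2aw is lower in all 3 RANKL + Vit D + K libraries than in any other, and for H2bc21 the second vitamin library sits at 4.98 FPKM against 0.728 and 1.08 FPKM in the other two.

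A pair of further linker histone genes passed the filter. H1f3 (Hist1h1d, chr13:23553262-23560686) had 61, 88 and 17 counts in the PBS libraries, 106, 183 and 10 in the RANKL libraries and 18, 455 and 29 in those with the vitamins. H1f4 (Hist1h1e, chr13:23620629-23622558) had 4, 6 and 0 counts in the PBS libraries, 6, 1 and 17 in the RANKL libraries and 16, 19 and 8 in those with the vitamins. H1f3 was highest in the second library of every group. H1f4 never exceeded 19 counts and overlaps H2bc6 on the same strand. Of the genes outside clusters 1 and 2, H2bu2 (Hist3h2ba), the pseudogene H2bu1-ps (Hist3h2bb-ps) and H4f16 (Hist4h4) were not tested, with at most 16, 8 and 14 counts in a library.

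The comparison of the RANKL group with the PBS group addressed what differentiation by RANKL does to these transcripts. None of the 28 tested members was called at an adjusted p under 0.05 (edgeR, 0 of 3 and 0 of 25). Of the members 1 had an unadjusted p under 0.05 (edgeR), as did 3163 of all 17002 genes. DESeq2 and limma also called 0. Of all 17002 genes tested 3.61% were called, 2.35% higher and 1.26% lower. The median log2 fold change of the 28 members was -0.33, against -0.04 for all tested genes, with 10 members above 0 and 18 below. H2aw had the lowest adjusted p of the members, 0.251, with a log2 fold change of -0.50 ± 0.21 (SE). H2bc21 was at 0.10 ± 0.53 and H2bc4 at -0.28 ± 0.17.

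The comparison of the RANKL + Vit D + K group with the RANKL group addressed what the vitamins add to RANKL. H2aw and H2bc21 were called lower and no member was called higher, with 10 of the 28 members above 0 and 18 below. H2aw was at a log2 fold change of -1.41 ± 0.22 (SE, adjusted p = 0.00224, edgeR), which is 0.376 of its RANKL level, and was lower in 3 of 3 libraries. In bulk RNA, fewer cells that express a gene and less RNA per cell cannot be told apart. H2bc21 was at -1.93 ± 0.55 (adjusted p = 0.0251, edgeR), which is 0.262 of its RANKL level, also lower in 3 of 3 libraries. The 2 lower calls among 28 members compare with 17.2% of all genes called lower and 16.4% called higher, 33.7% in all. The median over the 28 members was -0.14, against -0.04 for all tested genes. H2bc6 was next, at an adjusted p of 0.0952, and H2bc4, H4c9, H2bc8 and H1f2 had log2 fold changes of -0.05 ± 0.17, -0.02 ± 0.27, -0.11 ± 0.38 and 0.17 ± 0.54.

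The same pair fell in the RANKL + Vit D + K group against the PBS group, a comparison that shares the vitamin libraries with the one above. H2aw was at -1.91 ± 0.22 (adjusted p = 0.00043, edgeR), a level 73.4% lower than in the PBS group. H2bc21 was at -1.83 ± 0.55 (adjusted p = 0.0255, edgeR). Again 0 members were called higher, and the 2 lower calls among 28 compare with 21.0% of all genes called lower, 19.8% higher and 40.8% in all. The median of the 28 members was -0.48, against -0.04 for all genes, with 21 members below 0. The values of H2bc4, H2bc8 and H4c9 were -0.33 ± 0.17, -0.65 ± 0.38 and -0.41 ± 0.27. DESeq2 and limma called 4 members lower here, H2aw, H2bc21, H3c11 and H4c14, beside 15.3% of all genes lower in DESeq2 and 12.5% to 22.8% in limma. The DESeq2 share is over the 26943 genes with a fold change, 67 members among them, whether or not an adjusted p was given. H3c11 and H4c14, at most 18 and 58 counts, are named because these tools called them.

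The call of H2bc21 depended on single libraries. It was lost when only the groups compared entered the fit, with adjusted p-values of 0.0668 against RANKL and 0.0608 against PBS. Against RANKL it was also lost without the first or the third RANKL library or the first or the third vitamin library (adjusted p 0.0540 to 0.0905). Against PBS it was lost without any 1 of the PBS libraries or without the first or the third vitamin library (adjusted p 0.0581 to 0.0953). H2aw kept its call under every alternative that was run.

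The second RANKL + Vit D + K library was the highest of its group for each of the 8 members with the most counts. Without it 4 of 30 tested members were lower against RANKL (H2aw, H2bc21, H2bc6 and H3c15) and 10 against PBS (H2aw, H2bc21, H2bc4, H2bc6, H2bc8, H3c14, H3c15, H4c12, Hist1h2bq and Hist1h2br), the last 2 among the 9. In that fit 25.2% of all genes were lower against RANKL and 26.5% against PBS. The medians were then -0.67 and -1.03, against -0.11 and -0.08 for all genes. H2bc21 was then at -3.11 and -3.01. Without the second library of every group 4 of 26 tested members were lower against RANKL and 5 against PBS, beside 27.4% and 27.8% of all genes. In none of these fits was a member called higher.

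Markers of the cells in the cultures moved with the groups. All 7 macrophage markers were present and summed to 44924 to 53768 CPM with PBS, 25213 to 39525 CPM with RANKL and 9320 to 18301 CPM with the vitamins. Lyz2 made up most of this sum, with means of 40508, 27671 and 9039 CPM. Against RANKL, where 17.2% of all genes were lower and 16.4% higher, 5 of the 7 fell with the vitamins. Cd68 rose, from 732 ± 10.0 to 1061 ± 168 CPM (SD, n = 3). Itgam was not called, at 909, 1243 and 987 CPM. The 10 osteoclast markers summed to 116 to 133, 1190.2 to 2380.5 and 257 to 407 CPM in the same order. Against RANKL 8 of the 10 fell with the vitamins, beside the same 17.2% of all genes. Itgb3 rose, from 19.5 ± 6.93 to 82.5 ± 56.4 CPM (SD, n = 3). The 5 markers of proliferating cells summed to 140.3 to 574, 293 to 1252 and 1168 to 1501 CPM, with the second library highest in each group. Of these 5, 4 rose with the vitamins against PBS, beside 19.8% of all genes higher. In vitamins against RANKL and in RANKL against PBS 0 were called, beside 33.7% and 3.61% of all genes. The 9 neutrophil and granulocyte precursor markers summed to 10.6 to 128 CPM with PBS and 10.8 to 134 CPM with RANKL, and to 0.515 to 1.35 CPM with the vitamins, where Ltf, Camp, Mpo, Elane and Prtn3 were at 0 in all 3 libraries. The 3 B cell markers in the table stayed at or below 1.15 CPM, and at or below 0.0827 CPM with the vitamins. The 5 erythroid markers stayed at or below 0.501 CPM. The 4 stromal markers summed to 1.60 to 4.98 CPM with PBS, 2.46 to 2.88 CPM with RANKL and 0.201 to 0.435 CPM with the vitamins. The 3 T cell markers were not analysed here. The part of these cell types in the fall of H2aw and H2bc21 was not tested.

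**Figure D4:**
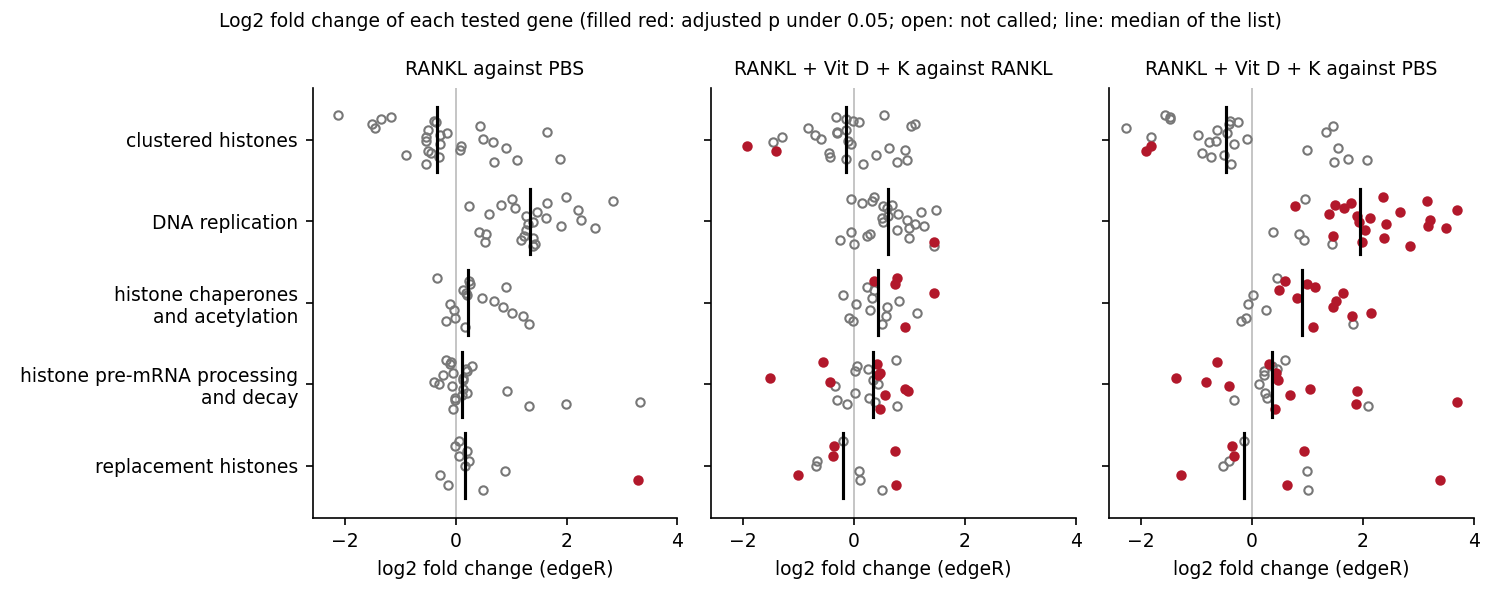
Log2 fold change of each tested gene (points) in the 3 comparisons for the clustered histone genes and the 4 lists of related genes, with called genes marked. The clustered histone genes have called members only below 0 and only with the vitamins, while the DNA replication genes lie above 0 against PBS.

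The summed level of the 67 genes was 185, 161 and 133 CPM (counts scaled by TMM to a common library size) in the PBS libraries, 142, 130 and 99.5 CPM in the RANKL libraries and 69.8, 163 and 55.4 CPM in the RANKL + Vit D + K libraries. The means were 159.6 ± 26.1, 123.8 ± 22.0 and 96.0 ± 58.4 CPM (SD, n = 3). The RANKL libraries overlapped the PBS libraries, and the second vitamin library lay within the PBS range. The ratio of means was 0.776 for RANKL to PBS, 0.776 for vitamins to RANKL and 0.602 for vitamins to PBS, and without the second vitamin library the latter ratios were 0.506 and 0.392. H1f2 makes up much of this sum. Without it the levels were 93.3, 86.7 and 93.8 CPM with PBS, 83.4, 72.8 and 74.9 CPM with RANKL and 30.2, 67.5 and 32.8 CPM with the vitamins, so that the 3 groups did not overlap. The ratios were then 0.844, 0.565 and 0.477. Without H1f2, H2aw, H2bc21 and H2bc4 the remaining 63 genes summed to 24.5, 20.1 and 20.9 CPM with PBS, 19.2, 19.7 and 13.3 CPM with RANKL and 9.78, 28.1 and 10.1 CPM with the vitamins, where the second library was the highest of all 9. The ratios of vitamins to RANKL and to PBS were then 0.918 and 0.733, or 0.571 and 0.456 without that library. The 9 genes with the older symbols summed to 2.25 ± 0.441, 0.960 ± 0.313 and 1.08 ± 0.740 CPM. Their ratios of vitamins to RANKL and to PBS were 1.13 and 0.482, or 0.725 and 0.309 without the second vitamin library.

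By class the ratios of vitamins to PBS were 0.301 for H2A, 0.429 for H3, 0.520 for H2B, 0.679 for H4 and 0.799 for H1, and those of vitamins to RANKL were 0.419, 0.573, 0.551, 0.976 and 1.14 in the same order. Without the second vitamin library the ratios to PBS were 0.265 for H2A, 0.160 for H3, 0.377 for H2B, 0.611 for H4 and 0.456 for H1, and those to RANKL were 0.370, 0.214, 0.399, 0.877 and 0.653. The H2A sum is mainly H2aw and the H1 sum mainly H1f2. These sums are descriptions and were not tested.

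**Figure D5:**
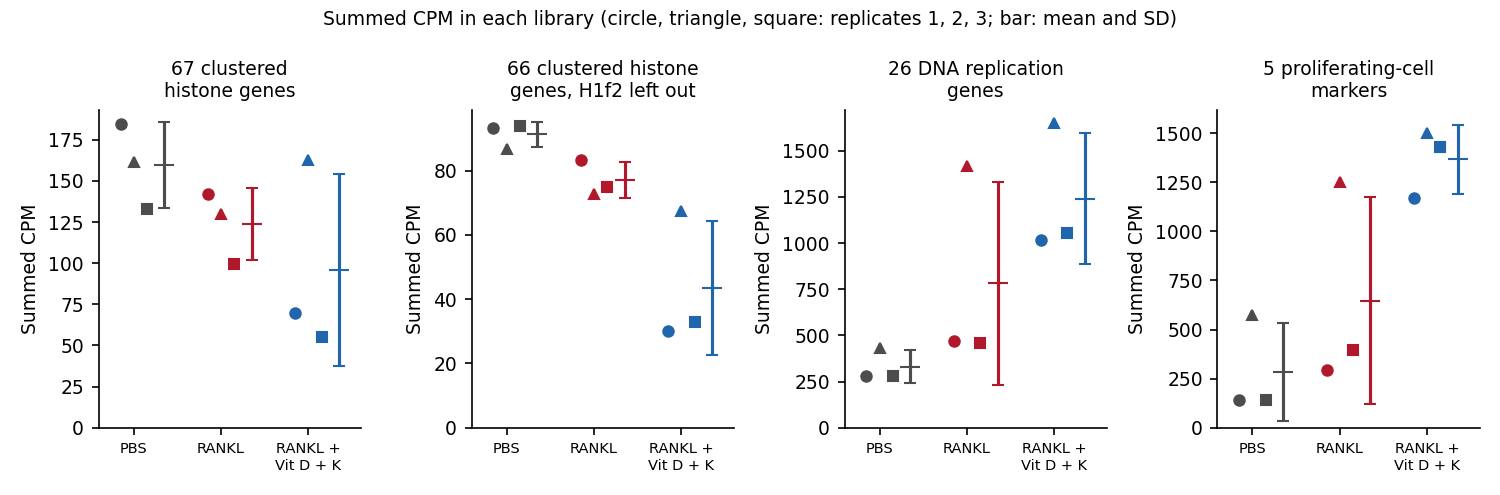
Summed CPM in each library (points) with group mean and SD for the 67 clustered histone genes, the 66 without H1f2, 26 DNA replication genes and 5 markers of proliferating cells. The histone sums are lowest in 2 of the 3 RANKL + Vit D + K libraries, where the DNA replication sums are 1017 and 1056 CPM against 279 to 432 CPM with PBS.

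Genes of DNA replication, which are expressed in the same phase of the cell cycle, were mostly called higher with the vitamins against PBS and mostly not called against RANKL. The 26 genes summed to 279, 432 and 280 CPM in the PBS libraries, 470, 1417 and 461 CPM in the RANKL libraries and 1017, 1650 and 1056 CPM in the RANKL + Vit D + K libraries. Against PBS 21 of 26 rose with the vitamins and 0 fell, beside 19.8% of all genes higher, with a median log2 fold change of 1.95. Mcm5, a part of the replicative helicase, rose by 3.21 ± 0.66 (SE, adjusted p = 0.00524, edgeR), Pole, a DNA polymerase subunit, by 3.70 ± 0.90 (0.011), Pcna, the sliding clamp, by 1.40 ± 0.34 (0.0106) and Rrm2, a subunit of ribonucleotide reductase, by 3.16 ± 1.09 (0.044). Against RANKL 1 of 26 rose, Cdt1, which licenses origins, by 1.45 ± 0.21 (0.00178), beside 16.4% of all genes higher, and DESeq2 called 5, beside 11.4%. In RANKL against PBS 0 were called by edgeR, and 19 had an unadjusted p under 0.05, as did 3163 of all 17002 genes. DESeq2 called 10, beside 3.92% of all genes higher. With the replicate number as a block 9 rose in RANKL against PBS and 15 in vitamins against RANKL, beside 3.16% and 17.4% of all genes higher. Without the second library of every group the numbers were 16 and 19, beside 5.73% and 24.6%.

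The factors that make and remove histone RNA showed calls in both directions with the vitamins. Of 25 listed genes 23 were tested. In RANKL against PBS 0 were called by edgeR, and 4 had an unadjusted p under 0.05, as did 3163 of all 17002 genes. With the replicate block or in DESeq2 3 rose, beside 3.16% and 3.92% of all genes higher. In vitamins against RANKL 7 rose and 3 fell, and against PBS 9 rose and 4 fell, beside 33.7% and 40.8% of all genes called in either direction. Without the second library of every group 12 rose and 5 fell against RANKL, beside 24.6% higher and 27.4% lower. In RANKL against PBS 4 rose without these libraries, and 2 rose and 1 fell without the second vitamin library, beside 5.73%, 5.46% and 5.23% of all genes. Slbp, which binds the stem-loop, was not called, at 0.19 ± 0.17, 0.25 ± 0.17 and 0.44 ± 0.17 (SE) in the 3 comparisons, with an adjusted p of 0.071 in the last (edgeR). Lsm11, of the U7 complex, was not called either, at -0.31 ± 0.16, 0.43 ± 0.16 and 0.12 ± 0.16.

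Against RANKL, Npat, the coactivator of histone gene transcription, rose by 0.47 ± 0.15 (SE, adjusted p = 0.0377, edgeR) and Casp8ap2, which is found with it in histone locus bodies, by 0.47 ± 0.13 (0.0242). Cstf2, a polyadenylation factor that also takes part in histone processing, rose by 0.97 ± 0.25 (0.0171), and Eri1, an exonuclease that trims the stem-loop end, rose by 0.91 ± 0.18 (0.00649). Upf1, a helicase needed for histone RNA decay, was at -0.56 ± 0.09 (0.00289), Mif4gd, which links SLBP to translation, at -0.44 ± 0.13 (0.0288) and Ncbp2, of the cap-binding complex, at -1.51 ± 0.36 (0.0129). Against PBS the 7 were called in the same direction. Lsm10, of the U7 complex, was called lower against PBS, at -0.41 ± 0.14 (0.0467). Ccne2, a cyclin that acts at the start of S phase, rose by 3.70 ± 0.86 against PBS (0.00875).

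Replacement histones, most of whose transcripts are polyadenylated throughout the cell cycle, had sums that overlapped between the groups, 1367 ± 112 CPM with PBS, 1473 ± 129.8 CPM with RANKL and 1460.3 ± 105 CPM with the vitamins. Of the 11 genes 1 rose in RANKL against PBS, the linker histone gene H1f10, by 3.29 ± 0.63 (SE, adjusted p = 0.0252, edgeR) from at most 16 counts a library. In vitamins against RANKL 2 rose and 3 fell, beside 16.4% and 17.2% of all genes. With the replicate block 2 rose and 5 fell, beside 17.4% and 17.2%, and without the second vitamin library 2 rose and 5 fell, beside 21.2% and 25.2%. Without the second library of every group 3 rose and 5 fell, beside 24.6% and 27.4%. H3f3b, which encodes the replacement histone H3.3, rose by 0.74 ± 0.15 (0.00597), while H3f3a, which encodes the same protein, was at -0.38 ± 0.10 (0.0189). H1f0, the linker histone of resting cells, rose by 0.77 ± 0.16 (0.00657), H2aj fell by 1.01 on the log2 scale (SE 0.17, 0.00303) and Macroh2a1 was at -0.35 ± 0.12 (0.042). H2ax, H2az1 and Cenpa, the centromere histone, were not called in the fit of all 9 libraries, at 0.10 ± 0.59, -0.69 ± 0.29 and 0.51 ± 0.48.

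Among histone chaperones and the related acetylation genes, the calls with the vitamins were upward in the fit of all 9 libraries. Of 18 genes 0 were called in RANKL against PBS by edgeR, beside 3.61% of all genes. An unadjusted p under 0.05 (edgeR) was held by 5 of them and by 3163 of all 17002 genes. In DESeq2 3 rose and with the replicate block 4, beside 3.92% and 3.16% of all genes higher. Against RANKL 5 rose and 0 fell, and against PBS 11 rose and 0 fell, beside 16.4% and 19.8% of all genes higher. With the replicate block 11 rose against RANKL, beside 17.4%. Against RANKL 6 rose and 1 fell without the second vitamin library, beside 21.2% higher and 25.2% lower, and 14 rose and 1 fell without the second library of every group, beside 24.6% and 27.4%. In RANKL against PBS the former gave 1 higher and 1 lower, and the latter 6 higher, beside 5.46%, 5.23% and 5.73% of all genes. Nasp, which carries H3 and H4, rose by 1.45 ± 0.29 (SE, adjusted p = 0.006, edgeR) against RANKL, and Asf1a, which hands the same dimer to other chaperones, by 0.93 ± 0.18 (0.00505). Against PBS, Chaf1a and Chaf1b, subunits of the chromatin assembly factor at the replication fork, rose by 1.80 ± 0.44 (0.0109) and 2.15 ± 0.48 (0.00714). Asf1b was at 1.82 ± 0.68 with an adjusted p of 0.0571.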

How the data were processed

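9 RNA-seq libraries of mouse BMDMs, labelled as 3 replicates in each of 3 groups, were analysed. The authors deposited 1 table of whole-number counts per gene, not normalized, and of FPKM values, which they scaled to transcript length and library. Per the labels and the submitters' processing notes, reads were trimmed with cutadapt 1.9, aligned with HISAT2 2.0.4 and assembled with StringTie 1.3.4d, and edgeR was also named. The notes name a human build (hg38), but the coordinates of all 67 members are those of GENCODE M21 (GRCm38), as are 28294 of 28379 gene IDs. Whether counting used strand, and how reads with several positions were treated, are not given in the sources used here, and this bears on near-identical and overlapping histone genes.

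Genes were filtered with filterByExpr, scaled by TMM and tested with the quasi-likelihood test of edgeR 4.0.16 (R 4.3.3) in a single fit to the 9 libraries; p-values were adjusted after Benjamini and Hochberg over 17002 genes with a threshold of 0.05. The SE is that of the log2 fold change. For edgeR it was derived from the test, as the absolute log2 fold change divided by the square root of the F statistic. Alternatives were DESeq2 1.42.0, limma 3.58.1 on log2(FPKM + 0.1) or log2(FPKM + 1), with a minimum mean of 0.1 FPKM or none, median-of-ratios size factors, no filter, the groups compared alone, the replicate number as a block, and each library left out. The scripts were tested on simulated data.

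The labels number the replicates alike in each group. Deviations from the group means correlated between same-numbered PBS and RANKL libraries at 0.122, 0.219 and 0.155, all above 0.1. The correlations were 0.00625, 0.0428 and 0.107 between RANKL and vitamins, and -0.0216, 0.0217 and 0.0237 between PBS and vitamins. The single fit above held no term for the replicate number, so its p-values ignore any pairing. The number entered only the alternative fit with a block, and the sources used here do not say what same-numbered libraries share.

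Stem-loops were searched within 120 bases behind the stop codon, as a 6-base stem that begins with GG around a 4-base loop that begins with TT. Named members were the 8 with the highest mean CPM, up to 5 called members in each direction and comparison, every tested linker histone gene and the genes of clusters 3 and 4. The 9 genes with older symbols were named by their symbol. Named genes of the other lists were a fixed few and up to 2 called in each direction. The members, lists and tests were chosen with earlier results of these data known. In the processing list Zcchc6 and Zcchc11 were not analysed here.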

Additional observations from a re-analysis of the deposited data

How the results depend on the processing

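H2aw kept its call against RANKL and against PBS under every alternative. The number of members called in RANKL against PBS was 0 under each. The number lower in vitamins against RANKL was 3 with DESeq2 (H3c11 in addition), 1 when the fit held the groups compared alone, and 1 to 4 when 1 library was left out, beside 13.8%, 11.9% and 9.16% to 25.2% of all genes lower. In vitamins against PBS it was 4 with DESeq2 and with limma at either pseudocount or without a filter, 1 with the groups compared alone, and 1 to 10 when 1 library was left out, beside 15.3%, 12.5% to 22.8%, 18.2% and 12.9% to 26.5% of all genes. Limma without a filter called 1 member higher against RANKL, H3c6, beside 6.98% of all genes. A fit without the second library of every group, chosen after seeing the data, gave 4 lower against RANKL and 5 against PBS, beside 27.4% and 27.8%. The ratios of summed CPM over all 67 members stayed below 1 in each setting run. Sums of parts of the family did not all do so in vitamins against RANKL, among them those of H1 and of the 9 genes with older symbols. The cause of these shifts was not tested.

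No call was reversed. Uncalled members changed sign as follows. H3c14 in RANKL against PBS was at 0.057 in limma with a pseudocount of 0.1, with or without a filter. In vitamins against RANKL, H1f2 was at -0.13 in limma with a pseudocount of 0.1, with or without a filter, at -0.12 with a pseudocount of 1, and at -0.42 without the second library of every group, where H1f3 was at -1.11 and H4c9 at 0.14. H1f3 was then at -0.67 against PBS. With 1 library left out, H1f3 ranged from -0.027 to 1.23 and H1f4 from -0.040 to 1.82 in RANKL against PBS. In vitamins against RANKL the ranges were -0.59 to 0.53 for H1f2, -1.83 to 1.5 for H1f3, -0.17 to 0.19 for H4c9, -0.65 to 0.12 for H2bc8 and -0.19 to 0.038 for H2bc4. Against PBS they were -1.14 to 0.044 for H1f2 and -1.14 to 2.06 for H1f3.

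With the replicate number as a block, 0 members were called in RANKL against PBS, beside 3.16% of all genes higher and 1.69% lower. In vitamins against RANKL 3 were lower (H2bc6 in addition) and against PBS 2, beside 17.2% and 21.0% of all genes lower. H4c9 was then at 0.0069 against RANKL. Between RANKL and PBS every library correlated best with its own number, which did not hold for number 1 of the vitamins against RANKL or against PBS.

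Depth limits most of the family, since 58 of 67 members stayed under 100 counts in every library. The spread between libraries limited some abundant members too. In vitamins against RANKL the SE was 0.22 for H2aw and 0.17 for H2bc4, but 1.39 for H3c14 and 1.22 for H1f3. It was 0.57 for H4c12 and 0.49 for H2ac8, which stayed under 100 counts.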

Other observations

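Some members stood out in the second RANKL + Vit D + K library. These genes were chosen after their values were seen. The linker histone gene H1f5 (Hist1h1b) had 68 counts in the second RANKL + Vit D + K library and 0 in the other two of its group, against 4, 10 and 5 counts with PBS and 1, 18 and 8 with RANKL. H1f3 had 455 counts in the same library against 18 and 29. H4c12 had 77 counts there against 14 and 19, and H3c15 had 78 against 2 and 12. H1f5 did not reach 100 counts in any library and did not pass the filter of the edgeR fit.

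H3c6, also chosen after its values were seen, had 8, 8 and 14 counts with PBS, 2, 4 and 0 with RANKL and 9, 15 and 6 with the vitamins. Its RANKL libraries were below all others, and its second vitamin library was again the highest of its group. It did not pass the filter of the edgeR fit.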
